A study of Mus musculus with 7 samples.

Results

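Expression of 10 naïve pluripotency transcription factors, Nanog, Esrrb, Klf2, Klf5, Tfcp2l1, Zfp42, Nr0b1, Prdm14, Tbx3 and Nr5a2, was followed through 7 mouse RNA-Seq libraries from the 5C reprogramming system. The factors were chosen by name, with earlier results of these data known, and each was matched by its symbol to 1 Ensembl gene, so that 10 of the 29267 genes in the tables were described. The question behind the comparisons was how far the naïve network is on in Oct4GFP+ and Oct4GFP- cells made in mES or 5C medium, and what becomes of it when 5C-Oct4GFP+ cells are moved to naïve or primed medium.

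There was 1 library for each group and no replicate, so no comparison could be tested, and the intervals given below cover the sampling of reads but not the spread between cultures. The cells were OG2 mouse embryonic fibroblasts (MEFs), reprogrammed with retroviral Oct4, Klf4, Sox2 and c-Myc. They carry a green fluorescent reporter driven by the Oct4 promoter and distal enhancer. The paper takes an active distal enhancer as a partly naïve trait, so the sort is not independent of the naïve state. The mES-Oct4GFP+ and mES-Oct4GFP- cells came from reprogramming in conventional mES medium and the 5C-Oct4GFP+ and 5C-Oct4GFP- cells from the chemically defined 5C medium, all sorted on the reporter and labelled with 0 passages. The 5C-Oct4GFP+ (naive) and 5C-Oct4GFP+ (primed) cells were 5C-Oct4GFP+ cells converted in naïve medium, which contains LIF and 2i (inhibitors of MEK and GSK3), or in primed medium with bFGF and activin A, and were labelled with 20 passages. The paper describes such converted cells as cultured in these media for days, and elsewhere as kept for 20 further passages. It reports that those in primed medium lost the fluorescence, so Oct4GFP+ in their name gives their origin. R1 ESCs-primed were cells of the mouse embryonic stem cell (ESC) line R1 brought to the primed state on MEF feeder cells, then kept with CHIR99021, a GSK3 inhibitor, and IWR-1, a Wnt inhibitor, in place of the growth factors, and labelled with 20 passages. All libraries except that of R1 ESCs-primed thus share the reporter, the fibroblast origin and the 4 retroviral factors, and conversion cannot be told apart from the added passages.

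Naïve pluripotency is the state of the early epiblast and of mouse ESCs. LIF activates STAT3, which switches on Klf4 and Tfcp2l1, while inhibition of GSK3 relieves the repressor TCF7L1 from targets such as Esrrb, Klf2 and Nanog. FGF signalling through ERK works against these genes and drives cells toward the primed state of the post-implantation epiblast, in which most of them are switched off while Pou5f1 and Sox2 stay on.

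The libraries held between 6108252 and 11496615 estimated reads, and a single read on a gene of typical length added 0.0950 to 0.181 TPM. TPM is a measure of transcript abundance per length that adds up to the same total in all libraries. The labels give mouse embryonic fibroblast as the cell type of the 6 OG2 libraries. The summed level of 12 fibroblast markers was between 19.9 and 45.9 TPM in the 3 Oct4GFP+ libraries that were not primed, 109 in 5C-Oct4GFP+ (primed), 305 in R1 ESCs-primed, 546 in 5C-Oct4GFP- and 778 in mES-Oct4GFP-, and Twist2 was listed at 0 in mES-Oct4GFP+ and 5C-Oct4GFP+ (naive). In bulk libraries, fewer cells that express a factor and less of its RNA per cell cannot be told apart. The tables assign Pou5f1, Sox2, Klf4 and Myc reads without separating the retroviral copies from the endogenous genes, and none of the 10 factors described here was delivered by virus.

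Together the 10 factors summed to 2216 TPM in mES-Oct4GFP+ and 2096 in 5C-Oct4GFP+ (naive). With 5C medium the sum was 1377 TPM in Oct4GFP+ and 294 in Oct4GFP- cells. It was lowest in R1 ESCs-primed, 5C-Oct4GFP+ (primed) and mES-Oct4GFP-, at 169, 144 and 112 TPM. All 10 factors were at 10 TPM or more in the 3 Oct4GFP+ libraries that were not primed, against 7 in 5C-Oct4GFP-, 4 in mES-Oct4GFP- and 2 in each primed library. The highest level of a factor was in mES-Oct4GFP+ for 5 factors and in 5C-Oct4GFP+ (naive) for 3, while Nr0b1 peaked in 5C-Oct4GFP+ and Nr5a2 in 5C-Oct4GFP-. The lowest was in 5C-Oct4GFP+ (primed) for 8 of the 10.

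**Figure D1:**
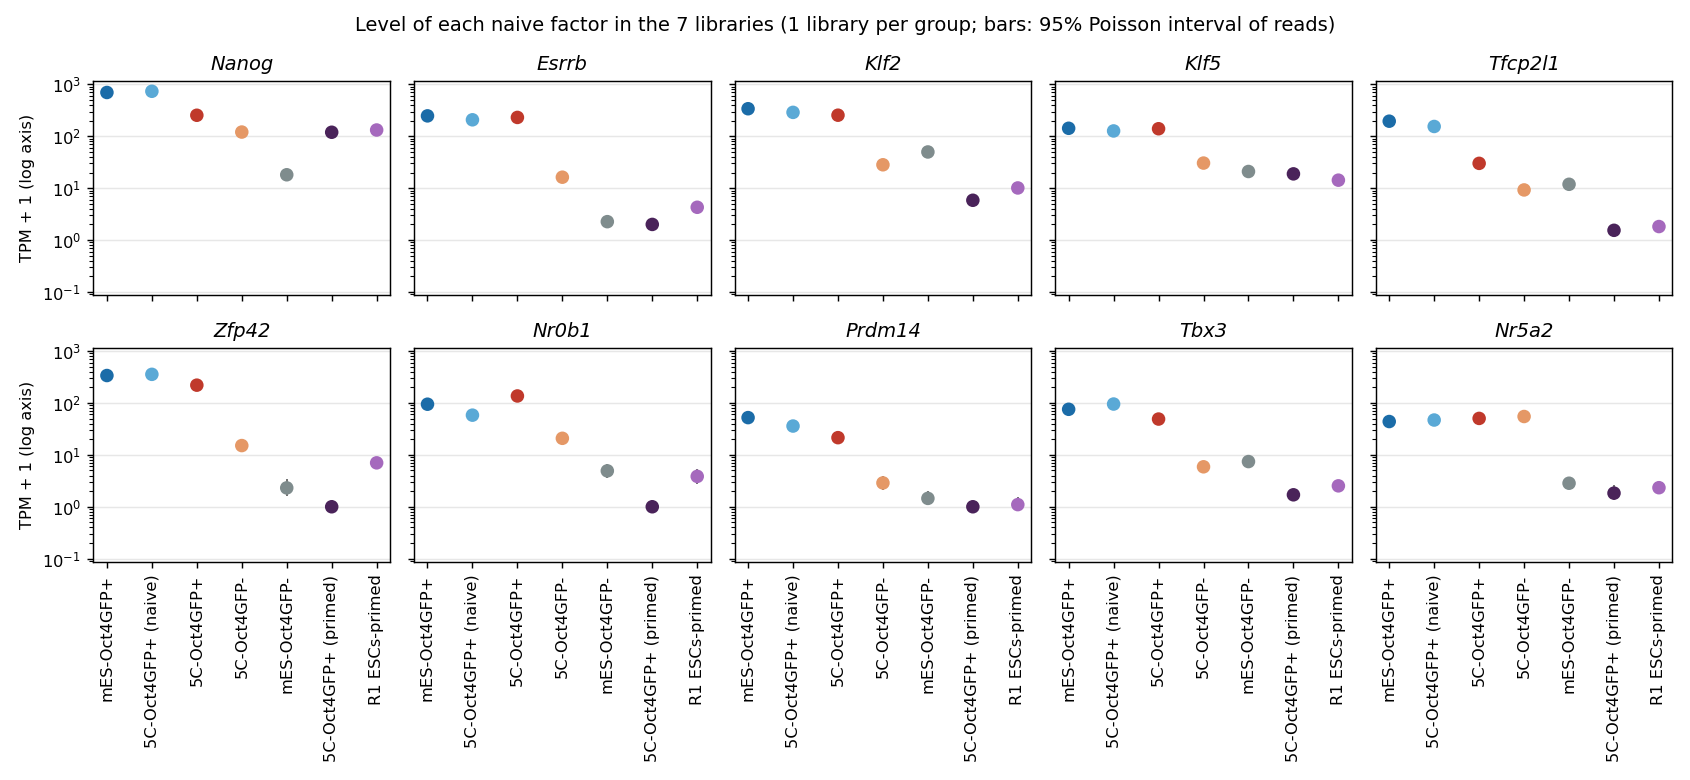
Level of each of the 10 factors in the 7 libraries, as TPM + 1 on a log axis, 1 point per library, with bars for the 95% Poisson interval of the reads. Nanog is still at 118 and 131 TPM in the 2 primed libraries, while Nr5a2 is at 53.9 TPM in 5C-Oct4GFP- cells, its highest level.

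Nanog encodes the homeodomain factor at the centre of the naïve network (ENSMUSG00000012396, GRCm38 chromosome 6, 122707489 to 122714633, plus strand). It was at 697 TPM in Oct4GFP+ and 17.1 TPM in Oct4GFP- cells of mES medium, 253 and 119.5 TPM in the same fractions of 5C medium, 735 TPM after naïve and 118 TPM after primed conversion, and 131 TPM in R1 ESCs-primed. Both primed libraries were above mES-Oct4GFP-. The 5C-Oct4GFP- to 5C-Oct4GFP+ (primed) ratio of 1.01 had a counting interval that includes 1 (0.934 to 1.09), while R1 ESCs-primed stood 1.10-fold above 5C-Oct4GFP- (1.01 to 1.19). Nanog made up 31.4% of the summed TPM of the 10 factors in mES-Oct4GFP+ and 18.4% in 5C-Oct4GFP+, but 82.1% after primed conversion and 77.4% in R1 ESCs-primed.

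Among the 3 nuclear receptors of the group, Esrrb (ENSMUSG00000021255, chromosome 12, 86361117 to 86521628, plus strand), an orphan receptor that binds with the core factors, was at 246 TPM in Oct4GFP+ and 1.26 TPM in Oct4GFP- cells of mES medium, 230 and 15.3 TPM in the same fractions of 5C medium, 207 TPM after naïve and 1.00 TPM after primed conversion, and 3.28 TPM in R1 ESCs-primed. The 3 high libraries lay close together and the 3 lowest rested on 23 to 47 reads each. Nr0b1 (ENSMUSG00000025056, chromosome X, 86191764 to 86195947, plus strand), which encodes the co-repressor DAX1, was at 93.7 TPM in Oct4GFP+ and 3.92 TPM in Oct4GFP- cells of mES medium, 135.5 and 19.9 TPM in the same fractions of 5C medium, 57.2 TPM after naïve conversion and 2.85 TPM in R1 ESCs-primed. It had no reads in 5C-Oct4GFP+ (primed), which allows up to 0.275 TPM (3 counts), and it was the one factor with its highest level in 5C-Oct4GFP+. Nr5a2 (ENSMUSG00000026398, chromosome 1, 136842571 to 136960448, minus strand), which encodes LRH-1, a receptor able to take the place of Oct4 in reprogramming, was at 42.9 TPM in Oct4GFP+ and 1.84 TPM in Oct4GFP- cells of mES medium, 49.4 and 53.9 TPM in the same fractions of 5C medium, 45.9 TPM after naïve and 0.830 TPM after primed conversion, and 1.33 TPM in R1 ESCs-primed. Its 4 highest libraries differed from their neighbours in the order by ratios of 1.07 to 1.09, each with an interval that includes 1.

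Klf2 and Klf5 encode Krüppel-like factors that share targets with Klf4. Klf2 (ENSMUSG00000055148, chromosome 8, 72319033 to 72321656, plus strand) was at 338 TPM in Oct4GFP+ and 48.8 TPM in Oct4GFP- cells of mES medium, 254 and 27.2 TPM in the same fractions of 5C medium, 288 TPM after naïve and 4.84 TPM after primed conversion, and 9.09 TPM in R1 ESCs-primed. Klf2 was the highest of the 10 factors in mES-Oct4GFP-, and its level in 5C-Oct4GFP+ was within counting error of the 253 TPM of Nanog. Klf5 (ENSMUSG00000005148, chromosome 14, 99298691 to 99315036, plus strand, with a length of 1721 bases in the tables and 3352 bases in GENCODE M21) was at 141 TPM in Oct4GFP+ and 19.9 TPM in Oct4GFP- cells of mES medium, 139 and 29.4 TPM in the same fractions of 5C medium, 126 TPM after naïve and 17.9 TPM after primed conversion, and 13.3 TPM in R1 ESCs-primed. With Nanog it was one of the 2 factors above 10 TPM in every library, and its 2 highest libraries, mES-Oct4GFP+ and 5C-Oct4GFP+, differed by a ratio of 1.02 (0.932 to 1.12).

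Tfcp2l1 (ENSMUSG00000026380, chromosome 1, 118627945 to 118685168, plus strand), a Grainyhead-type factor and a target of LIF and STAT3, was at 194 TPM in Oct4GFP+ and 10.9 TPM in Oct4GFP- cells of mES medium, 29.1 and 8.24 TPM in the same fractions of 5C medium, 153 TPM after naïve and 0.540 TPM after primed conversion, and 0.820 TPM in R1 ESCs-primed. Among the Oct4GFP+ libraries that were not primed, 5C-Oct4GFP+ therefore stood apart from the other two. Tbx3 (ENSMUSG00000018604, chromosome 5, 119670669 to 119684724, plus strand), a T-box factor downstream of LIF signalling through PI3K, was at 74.6 TPM in Oct4GFP+ and 6.43 TPM in Oct4GFP- cells of mES medium, 48.0 and 4.89 TPM in the same fractions of 5C medium, 94.4 TPM after naïve and 0.700 TPM after primed conversion, and 1.53 TPM in R1 ESCs-primed. The antisense gene Tbx3os1 shares 115 exon bases with Tbx3, and reads of the pair could not be told apart there unless strand was used in counting, which is not given in the sources used here.

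Zfp42 (ENSMUSG00000051176, chromosome 8, 43295063 to 43306980, minus strand) encodes REX1, the zinc finger protein that is the standard marker of naïve ESCs. It was at 337 TPM in Oct4GFP+ and 1.31 TPM in Oct4GFP- cells of mES medium, 219 and 14.1 TPM in the same fractions of 5C medium, 355 TPM after naïve conversion and 6.02 TPM in R1 ESCs-primed, and had no reads in 5C-Oct4GFP+ (primed), which allows up to 0.276 TPM. The naïve and mES-Oct4GFP+ levels differed by a ratio of 1.05 (0.995 to 1.12). Prdm14 (ENSMUSG00000042414, chromosome 1, 13113457 to 13127163, minus strand), which represses FGF receptor genes and the de novo DNA methyltransferases, was the lowest of the 10 in both 5C fractions, mES-Oct4GFP-, the naïve conversion and R1 ESCs-primed, and shared a count of no reads with Zfp42 and Nr0b1 after primed conversion. It was at 51.2 TPM in Oct4GFP+ and 0.450 TPM in Oct4GFP- cells of mES medium, 20.5 and 1.88 TPM in the same fractions of 5C medium and 34.9 TPM after naïve conversion, rested on 1 read in R1 ESCs-primed and had no read in 5C-Oct4GFP+ (primed), which allows up to 0.191 TPM.

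Promoter sequences are shown for 3 factors on which the results below turn: Nanog, which stayed on in primed cells, Zfp42, the standard naïve marker and one of 3 factors without reads in converted primed cells, and Nr5a2, whose levels in the sorted 5C fractions had a ratio with an interval that includes 1. Each line gives the 250 bases before a start site of the gene from RefSeq (GRCm38.p6), 5′ to 3′ on the strand of the gene, with matches to 5 motifs in capitals on either strand. None of the 4 windows overlaps an annotated exon.
Nanog, start 1, chr6:122707239-122707488, plus strand: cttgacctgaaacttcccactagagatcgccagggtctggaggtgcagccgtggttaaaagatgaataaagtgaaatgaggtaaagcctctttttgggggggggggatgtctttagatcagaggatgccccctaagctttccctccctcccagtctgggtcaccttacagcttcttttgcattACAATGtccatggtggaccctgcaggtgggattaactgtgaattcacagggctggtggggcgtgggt
Zfp42, start 1, chr8:43307010-43307259, minus strand: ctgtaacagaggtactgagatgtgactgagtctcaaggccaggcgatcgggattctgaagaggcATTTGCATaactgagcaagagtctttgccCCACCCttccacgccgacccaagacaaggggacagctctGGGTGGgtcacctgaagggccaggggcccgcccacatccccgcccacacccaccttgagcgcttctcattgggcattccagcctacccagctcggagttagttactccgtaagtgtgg
Nr5a2, start 1, chr1:136960449-136960698, minus strand: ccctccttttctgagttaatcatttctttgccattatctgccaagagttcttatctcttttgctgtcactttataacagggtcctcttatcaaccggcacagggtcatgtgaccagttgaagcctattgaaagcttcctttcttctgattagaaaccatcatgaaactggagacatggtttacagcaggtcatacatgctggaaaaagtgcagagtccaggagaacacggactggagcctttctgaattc
Nr5a2, start 2, chr1:136953631-136953880, minus strand: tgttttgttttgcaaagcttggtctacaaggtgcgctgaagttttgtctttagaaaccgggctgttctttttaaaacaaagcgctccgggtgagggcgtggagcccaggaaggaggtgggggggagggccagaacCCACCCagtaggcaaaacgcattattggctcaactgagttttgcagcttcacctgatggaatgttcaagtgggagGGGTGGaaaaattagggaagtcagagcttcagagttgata

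The motifs searched were the octamer ATGCAAAT bound by Oct4, the SOX box ACAATG, the Krüppel-like factor box CCACCC, the STAT palindrome TTCNNNGAA and the extended monomer site AAGGTCA bound by receptors such as ESRRB and NR5A2. Of the 32851 windows of this length in the RefSeq table, 1.60% held the octamer, 10.7% the SOX box, 28.1% the Krüppel-like factor box, 7.02% the STAT palindrome and 4.08% the monomer site. The Nanog window shown held a SOX box at positions −67 to −62 from the start and no exact octamer. Variants of a motif were not searched, and the bases ttttgcat near this SOX box resemble the other strand of the octamer without matching it. A second Nanog window, not shown because 28 of its bases are exonic, lies 76 bases further along and held the same SOX box and a Krüppel-like factor box at positions −50 to −45. The Zfp42 window held an octamer at positions −186 to −179 and 2 Krüppel-like factor boxes. Upstream of Nr5a2, start 1 held none of the 5 motifs and start 2 held 2 Krüppel-like factor boxes, and no 2 matches overlapped. Entries were found for 7 of the 10 factors, in 10 windows. A match of letters is a description and does not show binding.

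The first comparison asked how the factors divided between reporter-positive and reporter-negative cells of the same medium. The sort used a reporter with the distal enhancer of Oct4, which the paper ties to naïve characteristics. Its part in the division was not tested. On log2(TPM + 1), 9 of the 10 factors were higher by 2-fold or more in 5C-Oct4GFP+ than in 5C-Oct4GFP- cells, and none was 2-fold lower, where 8.45% of the 15675 genes with at least 1 TPM in either library were higher by that much and 22.6% lower. The members' median difference was 2.80 on the log2 scale, against −0.25 for all genes. Zfp42 was 15.6-fold higher (95% counting interval 12.8 to 19.1), Esrrb 15.0-fold (13.3 to 17.1), Prdm14 10.9-fold (6.92 to 18.1), Tbx3 9.81-fold (7.42 to 13.2) and Klf2 9.32-fold (8.08 to 10.8). Smaller ratios were found for Nr0b1 at 6.83, Klf5 at 4.71, Tfcp2l1 at 3.53 and Nanog at 2.12 (1.97 to 2.27). The exception was Nr5a2, with a ratio of 0.917 (0.835 to 1.01) and a log2 difference of −0.12 that became 0.03 when the libraries were rescaled to a common median ratio. That rescaling moved the median of all genes by 0.14 in this comparison, by 0.13 between 5C-Oct4GFP+ (naive) and 5C-Oct4GFP+ (primed), and by 0.12 between 5C-Oct4GFP+ (naive) and mES-Oct4GFP+.

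In mES medium, all 10 factors were at least 2-fold higher in the mES-Oct4GFP+ than in the mES-Oct4GFP- library, against 17.9% of the 16294 genes tested, and none was lower, against 28.8%. The members' median difference was 4.15 and that of all genes −0.15. Zfp42 was 257-fold higher (140 to 537), Esrrb 195-fold (130 to 309) and Prdm14 114-fold (48.4 to 352), each against a level of under 2 TPM. Nanog followed with 40.7-fold (34.7 to 47.9), Nr0b1 with 23.9-fold, Nr5a2 with 23.3-fold, Tfcp2l1 with 17.9-fold and Tbx3 with 11.6-fold. The Krüppel-like factors differed least, Klf5 by 7.09-fold (5.93 to 8.53) and Klf2 by 6.93-fold (6.21 to 7.75). The summed fibroblast markers were 20.7 and 778 TPM in this pair and 45.9 and 546 TPM in the 5C pair, with all 12 markers 2-fold lower in mES-Oct4GFP+ and 11 of 12 in 5C-Oct4GFP+ cells. The 8 primitive endoderm markers summed to 13.8 and 469 TPM in the mES pair and 29.3 and 217 TPM in the 5C pair, and the 9 trophoblast markers to 21.8 and 1452 TPM and to 86.6 and 338 TPM. The part of unreprogrammed or other cells in these differences was not tested.

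**Figure D2:**
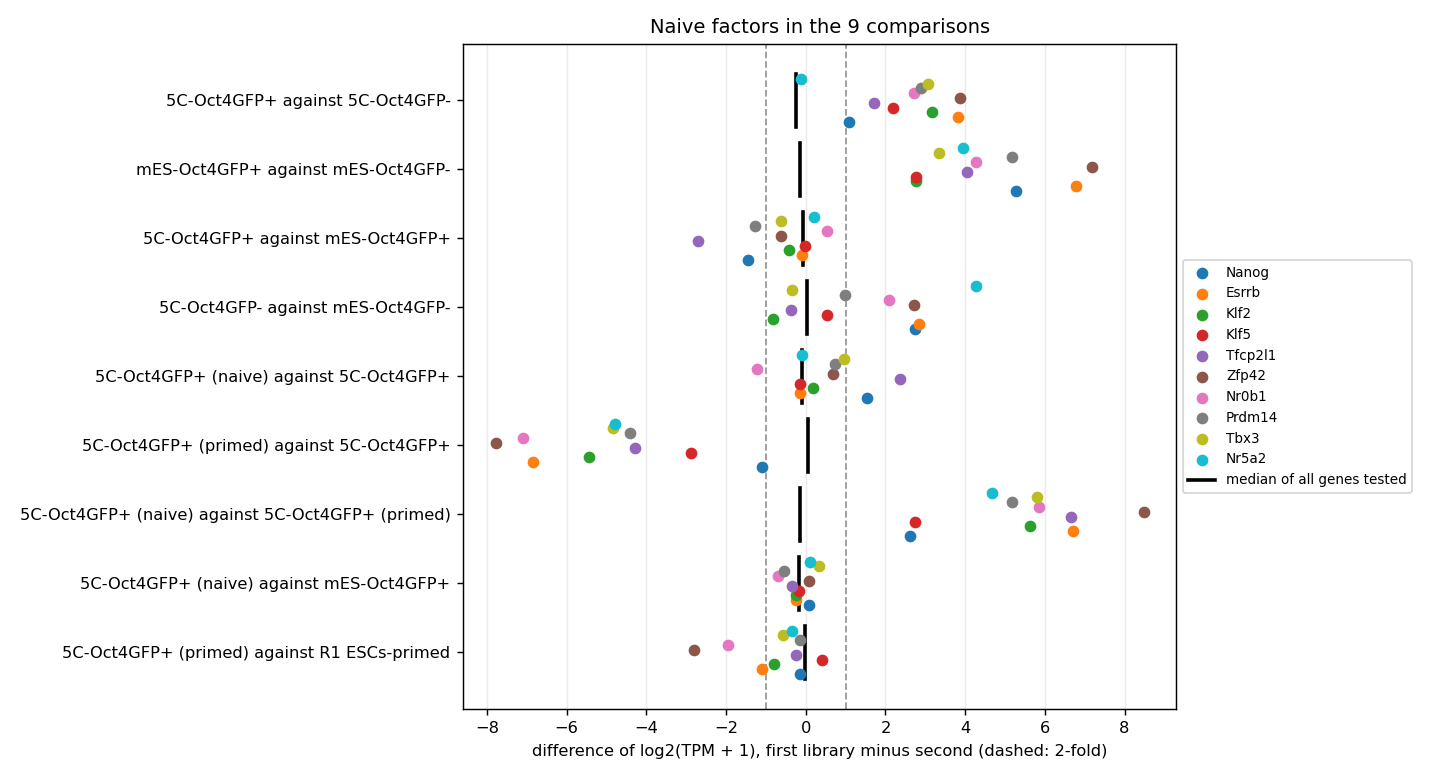
Difference of log2(TPM + 1) between 2 libraries for each of the 10 factors (points) in the 9 comparisons, with the median of all genes tested as a black bar and dashed lines at 2-fold. The factors sit to the right of 2-fold in all points of the mES sort and all but Nr5a2 of the 5C sort, to the left of it in 5C-Oct4GFP+ (primed) against 5C-Oct4GFP+, and inside the lines between 5C-Oct4GFP+ (naive) and mES-Oct4GFP+.

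Between the media, the share of factors past 2-fold in either direction in reporter-positive cells was near that of all genes, 3 of 10 against 27.2%. In 5C-Oct4GFP+ against mES-Oct4GFP+ cells, 3 factors were at least 2-fold lower (13.5% of 15196 genes tested) and none was 2-fold higher (13.7%). These were Tfcp2l1, with a ratio of 0.150 (0.141 to 0.158), Nanog, with 0.363 (0.347 to 0.380), and Prdm14, with 0.399 (0.343 to 0.465). The members' median difference was −0.52 against −0.06 for all genes. Zfp42, Tbx3 and Klf2 had ratios of 0.651, 0.644 and 0.750. Esrrb, with 0.933 (0.892 to 0.976), and Klf5, with 0.980 (0.896 to 1.07), were nearly level, and the small difference of Klf5 changed sign on rescaling. Nr0b1 at 1.45 (1.31 to 1.60) and Nr5a2 at 1.15 (1.03 to 1.29) were on the higher side.

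In the reporter-negative cells, 5 factors were at least 2-fold higher with 5C than with mES medium (9.68% of 15859 genes tested), and none was 2-fold lower (10.1%). Nr5a2 had the largest ratio, 29.3 (20.4 to 43.7), and its difference of 4.27 on the log2 scale was above that of 99.9% of the genes tested. Esrrb was 12.1-fold higher (7.90 to 19.4), Zfp42 10.8-fold (5.63 to 23.1), Nanog 6.98-fold (5.90 to 8.28) and Nr0b1 5.06-fold (3.40 to 7.77). Apart from Nanog and Nr5a2 these levels remained low, at 14.1 to 19.9 TPM in 5C-Oct4GFP- cells. Prdm14 had a ratio of 4.18 (1.52 to 14.2) and Klf5 of 1.48, and both were within 2-fold on the log2(TPM + 1) scale. Klf2 at 0.557, Tfcp2l1 at 0.758 and Tbx3 at 0.760 (0.541 to 1.06) were on the lower side. In the same pair, 7 of 12 fibroblast, 6 of 8 primitive endoderm and 8 of 9 trophoblast markers were 2-fold lower in 5C-Oct4GFP- cells and 1 fibroblast marker, Thy1, was higher, with sums of 546 against 778 TPM, 217 against 469 TPM and 338 against 1452 TPM. Their part in the factors' differences was not tested. Gbx2, a homeobox gene of the LIF pathway in ESCs, had the largest positive difference among the other naïve network genes in this pair, with 1.02 TPM in mES-Oct4GFP- and 47.0 in 5C-Oct4GFP-.

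**Figure D3:**
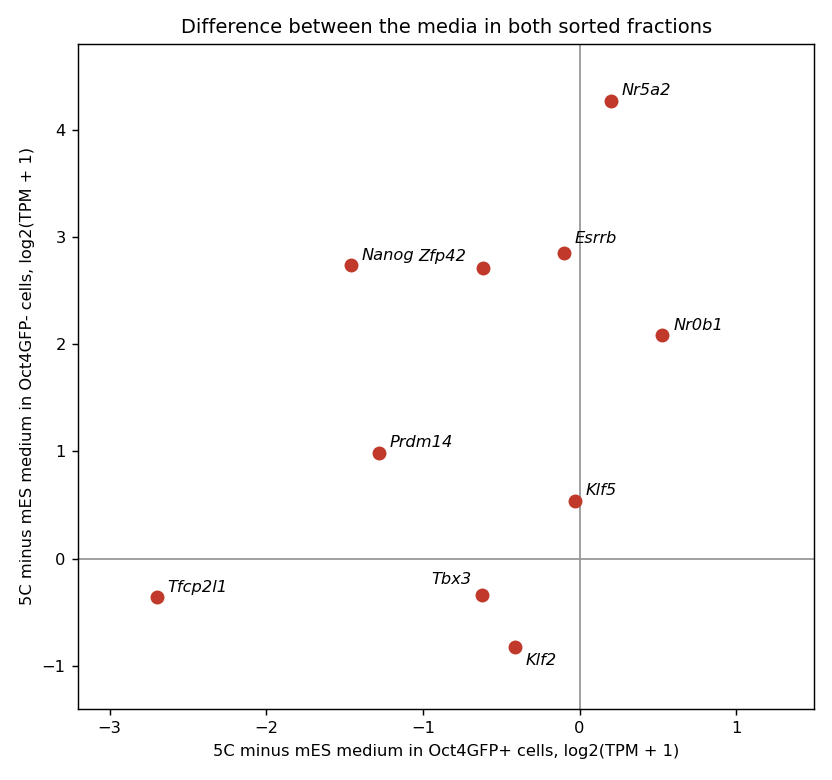
Difference between 5C and mES medium, as log2(TPM + 1), in Oct4GFP+ cells (horizontal axis) and Oct4GFP- cells (vertical axis) for each of the 10 factors, 1 library per group. Nanog, Esrrb, Zfp42 and Prdm14 lie in the upper left part of the plot, lower in 5C medium among Oct4GFP+ cells and higher among Oct4GFP- cells. Esrrb is only slightly to the left, at a horizontal position of −0.10. Nr5a2 has a vertical position of 4.27 at a horizontal position of 0.20.

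When 5C-Oct4GFP+ cells were taken through naïve medium, 2 factors were at least 2-fold higher than in 5C-Oct4GFP+ cells (10% of 14863 genes tested) and 1 was 2-fold lower (17.5%). Tfcp2l1 was 5.28-fold higher (4.99 to 5.59) and Nanog 2.90-fold (2.78 to 3.03), and both had been below mES-Oct4GFP+ before conversion. Tbx3 was just inside the limit with a ratio of 1.97 (1.81 to 2.14). Prdm14 at 1.71, Zfp42 at 1.62 and Klf2 at 1.13 were also on the higher side. Nr0b1, the factor with its peak in 5C-Oct4GFP+ cells, had a ratio of 0.422 (0.379 to 0.470). Esrrb at 0.90, Klf5 at 0.906 and Nr5a2 at 0.929 (0.842 to 1.03) were slightly on the lower side. The members' median was 0.44, against −0.10 for all genes.

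The naïve cells could then be set against mES-Oct4GFP+ cells, which had not been passaged. None of the 10 factors was 2-fold higher (2.49% of 14477 genes tested) or lower (6.27%), and the differences ran from −0.70 for Nr0b1 to 0.34 for Tbx3, with a median of −0.20 against −0.16 for all genes. Nanog had a ratio of 1.05 (1.02 to 1.09), Zfp42 of 1.05 and Tfcp2l1 of 0.790 (0.763 to 0.819). Esrrb at 0.839, Klf2 at 0.850 and Klf5 at 0.888 (0.808 to 0.977) were on the lower side, and Nr5a2 had a ratio of 1.07 (0.954 to 1.20). The largest departures were the ratios of 0.611 (0.539 to 0.693) for Nr0b1 and 0.682 (0.594 to 0.783) for Prdm14.

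In primed medium, all 10 factors were at least 2-fold lower than in 5C-Oct4GFP+ cells, where 16.1% of the 15067 genes tested were lower by that much and 13.7% higher. The members' median difference was −4.82 against 0.06 for all genes, and it was the same with the 3 factors without reads placed at their bound. Zfp42, Nr0b1 and Prdm14 had no reads and were at least 795-fold, 493-fold and 107-fold lower than in 5C-Oct4GFP+ cells, taking 3 counts in the primed library as the floor. Esrrb had a ratio of 0.00435 (0.00284 to 0.00639), Tbx3, Nr5a2, Tfcp2l1 and Klf2 had ratios of 0.0146 to 0.0191, and Klf5 one of 0.129. Nanog differed least, with a ratio of 0.468 (0.441 to 0.498) and a level of 118 TPM. The 12 fibroblast markers summed to 45.9 TPM before and 109 TPM after conversion. After conversion, 10 of 12 fibroblast, 6 of 8 primitive endoderm and 5 of 9 trophoblast list genes were 2-fold higher. The summed levels of the endoderm and trophoblast lists went from 29.3 to 211 TPM and from 86.6 to 895 TPM. Foxa2, at 0.25 and 82.9 TPM, and Eomes, at 7.49 and 81.2 TPM, are also on the list of formative and primed genes described below. Sox17, at 0.59 and 60.4 TPM, and Gata6, at 0.56 and 28.8 TPM, are on the endoderm list but not on that list. Of the endoderm list, 0 genes were 2-fold lower. Among the trophoblast list, the keratin genes Krt8 and Krt18 were at 24.6 and 48.2 TPM before and 434 and 361 TPM after conversion. Tfap2a was lower, at 2.08 and 0.17 TPM, and Cdx2, Hand1 and Elf5 stayed below 1 TPM. The part of cells of other types in the lower levels of the factors was not tested.

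The naïve and primed derivatives of the same cells differed in all 10 factors by at least 2-fold (16.7% of 15249 genes tested were higher in naïve cells and 22.2% lower). The median difference was 5.72, or 5.57 with the factors without reads at their bound, against −0.14 for all genes. Zfp42 was at least 1287-fold higher in naïve cells, Tfcp2l1 284-fold (200 to 419), Esrrb 207-fold (141 to 317), Tbx3 135-fold (81.5 to 242), Klf2 59.4-fold and Nr5a2 55.3-fold. Nr0b1 and Prdm14 were at least 208-fold and 182-fold higher. Klf5 at 7.04-fold (6.01 to 8.28) and Nanog at 6.20-fold (5.88 to 6.55) formed the lower end.

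Against R1 ESCs-primed, the primed cells of 5C origin had the lower level for 9 of the 10 factors, and 3 of the 8 that passed the minimum of 1 TPM were at least 2-fold lower (5.09% of 14600 genes tested), while none was 2-fold higher (2.30%). The median over all 10 was −0.46 and that of all genes −0.03. Zfp42 was at least 21.8-fold lower, from 40 reads in R1 ESCs-primed to none, Nr0b1 at least 10.4-fold lower, from 19 reads, and Esrrb had a ratio of 0.305 (0.181 to 0.502). Klf2 at 0.532 (0.363 to 0.780) and Tbx3 at 0.458 (0.221 to 0.923) were within 2-fold on the log2(TPM + 1) scale. Nanog was at 0.904 (0.836 to 0.978), and Klf5, at 1.35 (1.03 to 1.76), was the one factor on the higher side. Tfcp2l1, at 0.659 (0.384 to 1.13), and Nr5a2, at 0.624 (0.229 to 1.57), had intervals that include 1, and Prdm14 had 1 read against none. With FPKM in place of TPM the difference of Esrrb was −0.83, inside 2-fold. The lines differ in origin as well, and the summed fibroblast markers were 109 TPM in the 5C line and 305 TPM in R1 ESCs-primed. The paper describes feeder cells and inhibitors for R1 ESCs-primed and does not say whether the primed cells of 5C origin had them. Origin and any such difference in culture cannot be told apart here.

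The rest of the naïve network was read from a list of 16 other genes, whose counts stand against the shares of all genes given above for the same comparison. In 5C-Oct4GFP+ against 5C-Oct4GFP- cells, 11 of the 16 were at least 2-fold higher and 1 lower. The largest differences were those of Dppa5a, with 4714 and 110 TPM, and Dppa3, also called Stella, with 71.3 and 4.32 TPM, while Klf4, whose reads include the retroviral copy, was at 522 and 1512 TPM. In primed medium, 15 of the 16 were 2-fold lower than in 5C-Oct4GFP+ cells. The exception was Spp1, the gene of osteopontin, at 661 TPM before and 717 TPM after conversion. Between naïve and mES-Oct4GFP+ cells, 0 were 2-fold higher and 1 was lower, Tet2, a DNA demethylase gene, at 7.44 and 21.4 TPM. Between 5C-Oct4GFP+ and mES-Oct4GFP+ cells, 2 were higher, Klf4 and Mybl2, and 5 were lower, led by Dppa3 at 71.3 against 494 TPM. The list's median difference followed that of the 10 factors in sign in each comparison named here. In 5C-Oct4GFP- against mES-Oct4GFP- cells, however, the list's median was 0.01, near the 0.03 of all genes, while that of the 10 factors was 1.54.

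Of 10 genes listed as core pluripotency genes, 4 were 2-fold higher (16.7% of all genes tested) and 3 lower (22.2%) in naïve than in primed cells. The median difference was 0.11. Dppa4, at 68.2 and 0.540 TPM, and Dppa2, at 53.9 and 1.27 TPM, led the higher side and Lin28a and Utf1 the lower. Utf1 was at 1034 TPM in 5C-Oct4GFP+ and 42.2 in mES-Oct4GFP+, and 5 of the 10 were at least 2-fold higher in the former (13.7% of all genes tested), while Dppa2, at 63.2 and 133 TPM, was 2-fold lower (13.5%). Formative and primed genes, which mark the exit from the naïve state, were read from 14 symbols. In 5C-Oct4GFP+ against mES-Oct4GFP+ cells, 9 of the 13 tested were 2-fold higher (13.7% of all genes) and 0 lower (13.5%). The higher genes were led by Otx2, a driver of the exit from naïve pluripotency, at 189 and 0.410 TPM, and Pou3f1 at 32.1 and 0.480 TPM. In naïve medium, 9 of the 12 tested were 2-fold lower than in 5C-Oct4GFP+ cells (17.5% of all genes) and 0 higher (10%). Otx2 was at 1.15 TPM. In naïve against primed cells, 11 of the 13 tested were 2-fold lower (22.2% of all genes) and 0 higher (16.7%). The lower genes were led by Cer1 at 0.260 and 497 TPM and Fgf5 at 0.090 and 175 TPM. The 5C-Oct4GFP+ library thus held all 10 naïve factors at 20.5 TPM or more together with Otx2 at 189 TPM.

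**Figure D4:**
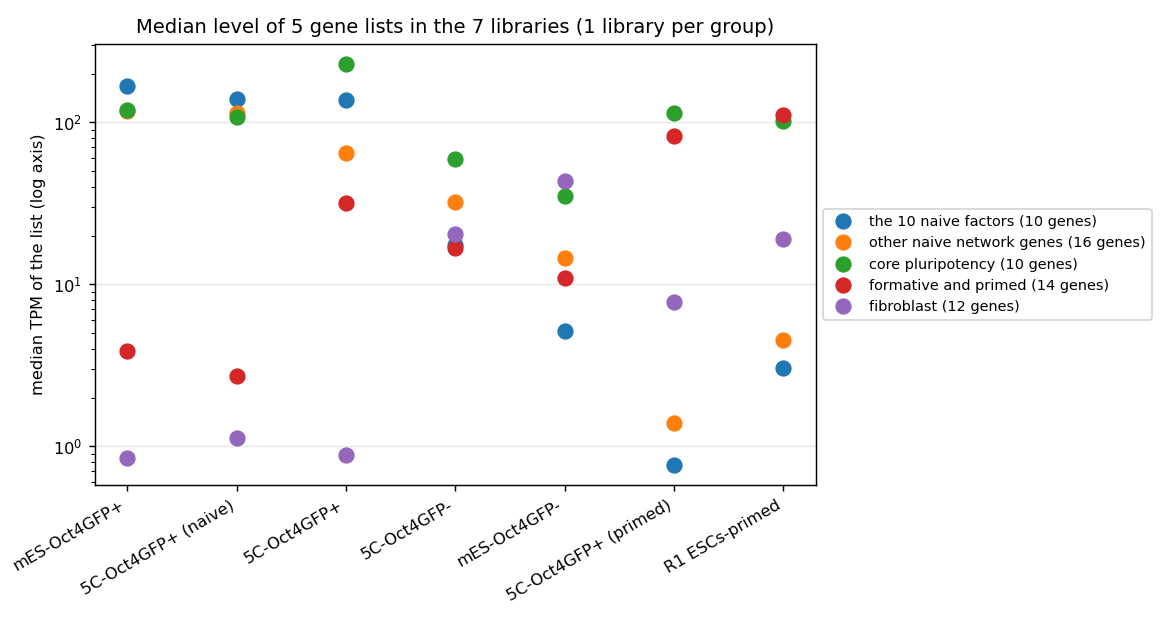
Median TPM of 5 gene lists (points, log axis) in the 7 libraries, 1 library per group, with the number of genes of each list in the legend. The median of the 10 factors is 168, 139.5 and 137 TPM in mES-Oct4GFP+, 5C-Oct4GFP+ (naive) and 5C-Oct4GFP+, where that of the formative and primed genes is 3.87, 2.72 and 31.7 TPM, and in 5C-Oct4GFP+ (primed) they are 0.765 and 82.1 TPM.

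Of 19 genes of the signals that feed the network, 18 were tested in each comparison given here. The list mixes activating signals with inhibitors and targets, so its counts have no single direction. In 5C-Oct4GFP+ against mES-Oct4GFP+ cells, 7 were 2-fold higher (13.7% of all genes tested) and 0 lower (13.5%). Id1, a target of BMP signalling, was at 98.2 and 4.19 TPM, and Spry4, a target of FGF and ERK signalling, at 22.5 and 0.40 TPM. In naïve medium, 8 were 2-fold lower than in 5C-Oct4GFP+ cells (17.5% of all genes tested) and 0 higher (10%). The lower genes were led by Id1 at 4.51 TPM and by Dusp6, the ERK phosphatase gene and a readout of ERK activity, at 7.0 against 73.7 TPM. Dusp6 was at 3.53 TPM in mES-Oct4GFP+ cells, from conventional mES medium. The part of MEK inhibition in naïve medium and that of the bFGF in 5C medium were not tested. In primed medium 6 were lower than in 5C-Oct4GFP+ cells (16.1% of all genes tested) and 0 higher (13.7%). Fgf4, an autocrine ligand of ESCs, was at 6.93 TPM in 5C-Oct4GFP+ (primed) against 199 TPM in 5C-Oct4GFP+, and Socs3, a direct STAT3 target, at 7.54 against 149 TPM.

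The levels of the 10 factors followed each other across the 7 libraries to different degrees. As a description over 7 libraries that share depth and processing, the Pearson correlation of log2(TPM + 1) had a median of 0.918 over the 45 pairs of factors and ran from 0.573 for Nanog with Klf2 to 0.988 for Esrrb with Zfp42. The correlation of a factor with the mean profile of the 10, to which it contributes, was 0.991 for Prdm14, 0.989 for Esrrb and 0.983 for Zfp42, and was lowest for Nr5a2 at 0.886 and Nanog at 0.787. Of 5472 other genes that reached 5 TPM and varied by at least 2 on the log2 scale, 391 (7.15%) had a correlation of 0.9 or more with that mean. The 10 with the highest values were 1700030C10Rik at 0.996, 5430403G16Rik, Zfp975, Gm3604, Gm37324, Gm2381, Zfp59, 1700061G19Rik, Zfp984 and Plekha4, the last at 0.989. Several of them belong to large zinc finger families in which near-identical copies share reads, so their levels are uncertain.

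The deposited gene length, which is the mean length of a gene's transcripts weighted by their estimated abundance, varied for the factors with several transcripts in the tables. In libraries with at least 100 reads, that of Tbx3 ran from 3201 bases in 5C-Oct4GFP+ to 4793 in mES-Oct4GFP-, a range of 49.7%. Nr5a2 ran from 3309 bases in 5C-Oct4GFP+ to 3778 in 5C-Oct4GFP-, and Esrrb from 3807 in 5C-Oct4GFP+ to 4172 in 5C-Oct4GFP-. The length of Nanog varied by 1.04%, and those of Klf2, Klf5, Zfp42, Nr0b1 and Prdm14, with 1 transcript each, could not vary. For Nr5a2, the sorted 5C libraries thus had nearly the same TPM with a different mix of transcripts, as estimated from 913 and 852 reads.

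**Figure D5:**
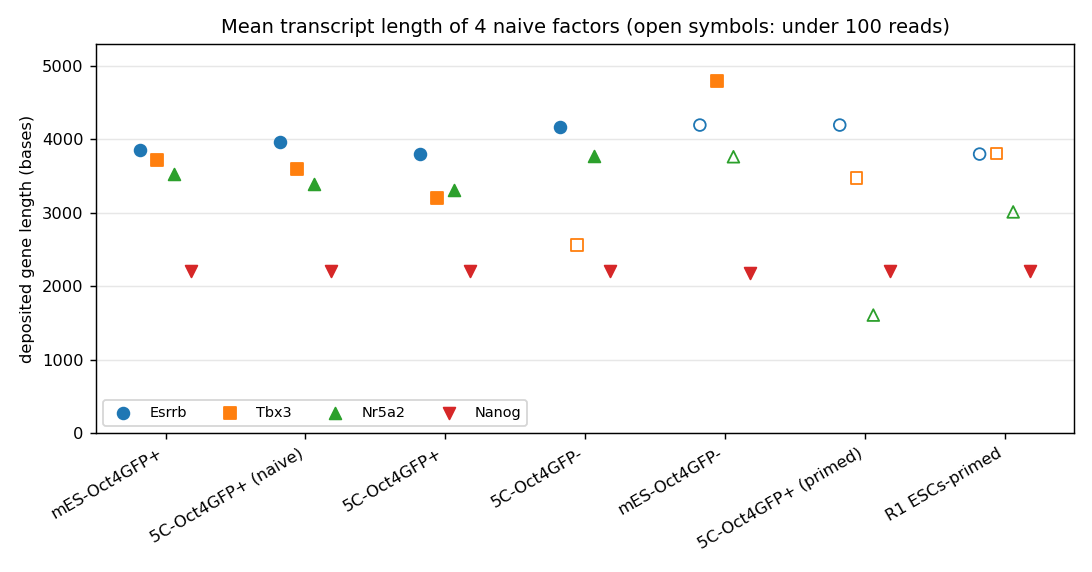
Deposited mean transcript length in bases of Esrrb, Tbx3, Nr5a2 and Nanog in the 7 libraries, 1 point per gene and library, open where the gene had under 100 reads. Among the filled points, Tbx3 spans 3201 to 4793 bases while Nanog stays between 2188 and 2211 bases.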

How the data were processed

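TruSeq libraries were made from total RNA and sequenced on an Illumina MiSeq, 1 per group. Per the labels, the submitters' processing notes name Bowtie, RSEM and the mm10 build; versions and strand settings are not given in the sources used here. The authors deposited RSEM's expected counts, estimated without normalization for each Ensembl gene. The authors' TPM divide these counts by effective length and scale them to the same sum in every library. FPKM, scaled by the authors to mapped fragments, served as an alternative.

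The 10 factors and the 10 gene lists, of which 124 of 125 symbols were matched, were chosen with earlier results of these data known, and the motifs after the values were seen. All 10 factors are named in each comparison, and of a list in a comparison at most the 2 most positive and 2 most negative genes. Exceptions are Gata6, Krt18, Cdx2, Hand1 and Elf5 after primed conversion and Dusp6 in mES-Oct4GFP+. Tcf7l1, Esrra and the markers at 0 are given over all libraries. Differences are of log2(TPM + 1), which understates changes of low genes. A gene entered a comparison with 1 TPM or more in 1 of its libraries and counted as changed at 2-fold. Ratios of TPM have exact Clopper-Pearson 95% intervals from rounded counts, for counting error only. A gene without reads was set against a floor of 3 counts per library. Coordinates are from GENCODE M21 (GRCm38), and promoters from RefSeq. The deposited lengths of Klf5 and Zfp42 differ from M21, so the authors' gene models are another release. Scripts (scipy 1.17.1, pandas 2.3.3, numpy 2.4.6 and matplotlib 3.10.9 under Python 3.11.15) were tested on simulated data. Alternatives were FPKM, a pseudocount of 0.1, no minimum or 5 TPM, median-ratio rescaling, a fold of 4 and, for correlations, Spearman or a 20 TPM minimum.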

Additional observations from a re-analysis of the deposited data

Results flagged for a closer look

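For 4 of the 10 factors the difference between 5C and mES medium had opposite directions in the sorted fractions, lower in 5C medium among Oct4GFP+ cells and higher among Oct4GFP- cells, with counting intervals of both ratios that exclude 1. The difference of the differences, on the log2(TPM + 1) scale, was −4.19 for Nanog, −3.33 for Zfp42, −2.95 for Esrrb and −2.27 for Prdm14. With 1 library per group this difference was not tested. The summed markers of fibroblasts, primitive endoderm and trophoblast were also lower among Oct4GFP- cells of 5C than of mES medium, at 546 against 778 TPM, 217 against 469 TPM and 338 against 1452 TPM, and their part was not tested. The part of Esrrb in Oct4GFP+ cells was small, a ratio of 0.933 that stood at −0.05 on the log2 scale after rescaling of the libraries. Among Oct4GFP- cells of mES medium, Zfp42 rested on 10 reads and Prdm14 on 5.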

How the results depend on the processing

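The number of factors past 2-fold in the 9 comparisons was recomputed under 6 alternatives each. At a fold of 4 it fell to 1 of 10 in 5C-Oct4GFP+ against mES-Oct4GFP+ (Tfcp2l1), to 1 in 5C-Oct4GFP+ (naive) against 5C-Oct4GFP+ (Tfcp2l1) and to 1 in 5C-Oct4GFP+ (primed) against R1 ESCs-primed (Zfp42), and the last was also 1 with a minimum of 5 TPM, since fewer factors then pass the limit. With FPKM the last was 2, without Esrrb. The other counts stayed within 1.5 times their value. With Spearman's rho in place of Pearson's r, 5 of the 10 genes most like the factors' mean were among the 32 genes tied at a rho of 1. Of 270 differences of single factors, 233 moved by less than their counting error, 37 by more, and 0 past 2-fold changed sign. For a factor without reads in 1 library, that error has no limit on 1 side, so a shift to a larger difference could not count among the 37. In 5C-Oct4GFP+ (primed) against 5C-Oct4GFP+, the pseudocount of 0.1 took Zfp42 from −7.78 to −11.1, Nr0b1 from −7.09 to −10.4 and Prdm14 from −4.42 to −7.68. These stand among the 233. No paired analysis was possible because each group has 1 library and the labels carry no replicate numbers, and leaving out a replicate was not possible for the same reason. Depth limits Zfp42, Nr0b1 and Prdm14 in 5C-Oct4GFP+ (primed), where they had no reads, and Prdm14 in R1 ESCs-primed, with 1 read. It also limits Nr5a2 in 5C-Oct4GFP+ (primed), with 8 reads, and Zfp42 and Prdm14 in mES-Oct4GFP-, with 10 and 5 reads.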

Other observations

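Genes that restrain the naïve network were read from a list of 11. In 5C-Oct4GFP+ (naive) against 5C-Oct4GFP+ (primed) cells, 0 of the 10 tested were 2-fold higher (16.7% of all genes tested) and 3 lower (22.2%), among them Foxp1 at 0.730 and 21.2 TPM and Etv4 at 25.5 and 100.5 TPM. In 5C-Oct4GFP+ against mES-Oct4GFP+ cells, 3 of the 9 tested were higher (13.7% of all genes) and 1 lower (13.5%), with Foxp1 at 20.0 against 4.84 TPM. Tcf7l1, the repressor released by GSK3 inhibition, was between 50.6 and 109 TPM in the 7 libraries.

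Relatives of the 10 factors were read from a list of 21. Between naïve and mES-Oct4GFP+ cells none of the 17 tested was 2-fold higher (2.49% of all genes) or lower (6.27%). In mES-Oct4GFP+ against mES-Oct4GFP- cells, where all 10 factors were higher, 7 of the 17 tested were 2-fold lower (28.8% of all genes) and 1 was higher (17.9%), Yy2, a relative of Zfp42 from the YY1 family, at 7.0 and 2.61 TPM. Klf6 was at 10.4 and 201 TPM, and Tbx2 at 1.27 and 26.7 TPM. Esrra, the widely expressed relative of Esrrb, was between 12.7 and 38.4 TPM in the 7 libraries.

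For single factors, the genes with the most similar profile over the 7 libraries, by Pearson's r and as a description, were Adam19 for Nanog at 0.992, Jam2 for Klf2 at 0.996, Khdc3, an oocyte and early embryo gene, for Klf5 at 0.991 and Grtp1 for Nr5a2 at 0.988. Grtp1 was at 57.1 TPM in the Oct4GFP+ and 53.0 TPM in the Oct4GFP- library of 5C medium.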
